A study of Mus musculus with 6 samples.

Results

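Transcripts of support cells were followed in RNA of sorted mouse photoreceptors. The set held 37 genes, chosen by symbol as markers of Müller glia (12), astrocytes (4), pigment epithelium (11, of which 5 serve the visual cycle or its transport, 1 is the anion channel gene Best1, counted with them as the visual cycle class, and 5 belong to melanin formation), endothelium (6) and pericytes (4), out of 49997 gene symbols counted. All 37 were found. Libraries came from 3 mice injected with an adeno-associated virus carrying a guide RNA against Nr2e3 and 3 mice injected with the same vector carrying a control guide, all 6 of the Rosa26-Cas9 genotype, which expresses SpCas9 in all cells. The vector marks photoreceptors with mCherry from a human GRK1 promoter and is packaged with a 7m8 coat. The mice were injected under the retina at 4 weeks of age by the treatment protocol, or at 21 days by the series text. After 6 months, about 100000 mCherry-positive cells were sorted from the 2 retinas of each mouse. Guide replicate 1 was male, guide replicates 2 and 3 were female, and all 3 control mice were male, so that sex and guide were partly confounded. The sort gates on the reporter and does not remove support cells by a marker of their own.

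Müller glia span the whole retina, wrap the photoreceptors, recycle glutamate and potassium, and release visual pigment precursors to cones. Astrocytes lie at the inner surface along vessels. The retinal pigment epithelium faces the photoreceptor tips, regenerates the visual chromophore and holds melanin. Endothelial cells and pericytes form the retinal capillaries, which do not enter the photoreceptor layer. RNA of these cells in a photoreceptor sort is a measure of what a library carries beside photoreceptor RNA. In such bulk samples fewer cells of a type and less RNA per cell cannot be told apart. Whether a marker transcript counted here came from its named cell type or from the sorted photoreceptors was not tested.

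The libraries held 24705561 to 33098812 gene counts in guide mice and 32626751 to 34286248 in control samples. Levels are given as CPM, in which the total of each library, scaled by its normalisation factor, is set to the same size, so that 3 counts correspond to 0.0883 to 0.131 CPM in guide mice and 0.0802 to 0.0953 CPM in control mice. These limits cover counting error only. The 11 rod genes used to check the label took 20.9 to 21.7% of gene counts in guide and 20.5 to 23.1% in control mice. Nr2e3 itself, the rod nuclear receptor targeted by the guide, was at 2094, 1906 and 2244 CPM in guide replicates 1, 2 and 3, against 1756, 1572 and 1507 CPM in control replicates 1, 2 and 3 (log2 fold change 0.37, SE 0.13, edgeR adjusted p = 0.716). Small insertions or deletions are not read by a gene count, and the labels cannot be checked from the Nr2e3 level. Of 11 cone genes, 3 had every guide library above every control library and 1 had the reverse. Groups did not overlap for 12.1% of all genes tested. The cone gene Gnat2 was at 8426, 7135 and 7276 CPM in guide and 1126, 1005 and 184 CPM in control mice (log2 fold change 3.30, SE 0.61, edgeR adjusted p = 0.121). The cause was not tested.

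The pigment-forming genes are shown first by sequence, because most of them moved together across libraries and their sum had the widest spread of the 6 classes. Promoters of 3 of them were in the RefSeq table for GRCm38.p6, each printed from 250 bases before to 50 bases after the annotated start. Capitals mark CATGTG, the core of the M-box that the pigment cell factor MITF is known to bind, or its reverse complement CACATG.
Tyrp1, chr4:80833963-80834262, plus strand: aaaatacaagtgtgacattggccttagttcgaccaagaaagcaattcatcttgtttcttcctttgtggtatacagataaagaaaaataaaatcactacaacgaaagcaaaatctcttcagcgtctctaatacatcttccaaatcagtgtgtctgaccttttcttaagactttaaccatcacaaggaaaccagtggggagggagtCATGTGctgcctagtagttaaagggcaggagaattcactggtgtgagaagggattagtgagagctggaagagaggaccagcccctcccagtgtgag
Tyr, chr7:87493463-87493762, minus strand: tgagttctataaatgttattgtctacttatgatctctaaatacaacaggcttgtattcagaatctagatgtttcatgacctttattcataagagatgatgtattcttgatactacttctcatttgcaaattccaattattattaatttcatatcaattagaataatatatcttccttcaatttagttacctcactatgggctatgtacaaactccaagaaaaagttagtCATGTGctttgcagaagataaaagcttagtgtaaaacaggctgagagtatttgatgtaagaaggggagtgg
Dct, chr14:118052197-118052496, minus strand: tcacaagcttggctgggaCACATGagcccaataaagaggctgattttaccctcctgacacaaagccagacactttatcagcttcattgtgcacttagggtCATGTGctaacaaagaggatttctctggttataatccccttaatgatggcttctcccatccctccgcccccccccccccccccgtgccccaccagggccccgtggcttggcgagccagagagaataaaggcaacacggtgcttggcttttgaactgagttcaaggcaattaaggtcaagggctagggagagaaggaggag
In Tyrp1 the motif begins 46 bases before the start and in Tyr 21 bases before it. Dct has it in both orientations, 232 and 150 bases before the start. The motif occurred on either strand in 14.2% of the 32851 promoters of the table, and in 1 of 9 Müller glia, 2 of 5 visual cycle, 0 of 6 astrocyte, 0 of 4 endothelial and 0 of 3 pericyte promoters listed there, where Pax2 has 3 starts. A match describes letters in the window and not a bound site. For the gene of the factor itself, Mitf, guide replicates 1, 2 and 3 gave 3.30, 1.57 and 1.80 CPM. Control replicates 1, 2 and 3 gave 2.57, 2.37 and 3.05 CPM. Among the controls, Mitf was thus highest in replicate 3, the library with the lowest melanin gene sum (0.107 CPM). Whether MITF acts on the pigment-forming genes in these samples was not tested.

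Control replicate 3 stood apart within its group. It lay below both other control libraries in 21 of the 26 support cell genes with enough counts to be tested, as it did in 41.9% of all genes tested, and guide replicate 3 lay above both other guide libraries in 18 of the 26, against 36.4%. The 13 microglia markers, which belong to another cell type, summed to 38.5, 191 and 129 CPM in guide mice and 36.1, 38.7 and 325 CPM in control replicates 1, 2 and 3. All 13 were higher in control replicate 3 than in both other controls, as were 7265 of the 17138 genes tested. The 12 amacrine markers summed to 174, 65.3 and 306 CPM in guide mice and 310, 355 and 140 CPM in control mice, with all 12 below both other controls in control replicate 3 and all 12 above both other guide libraries in guide replicate 3. The part of these other cell types in the values that follow was not tested.

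Levels were first summed by cell class. The 12 Müller glia genes together were at 807, 1293 and 1121 CPM in guide replicates 1, 2 and 3 and at 737, 708 and 1130 CPM in control replicates 1, 2 and 3. Clu made up 69.6% of that sum over all libraries. Without Clu the remaining 11 genes were at 173, 194 and 387 CPM in guide mice and 410, 404 and 192 CPM in control mice. The order of the libraries thus depended on that gene, and the groups overlapped with it and without it. Leaving it out was chosen after its values were seen.

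The astrocyte sum was 1.71, 1.44 and 5.59 CPM in guide mice and 8.51, 11.0 and 2.73 CPM in control replicates 1, 2 and 3. Visual cycle genes of the pigment epithelium summed to 3.30, 1.39 and 2.62 CPM in guide mice and 5.88, 5.97 and 5.77 CPM in control mice, with every guide library below every control library. Their sum rested on Rdh5 for 57.9%, and without it the groups overlapped (2.77, 0.479 and 0.971 CPM in guide mice, 2.95, 2.63 and 0.695 CPM in control mice). Melanin genes summed to 2.43, 0.653 and 2.33 CPM in guide mice and 17.0, 17.5 and 0.107 CPM in control mice, a 163-fold span within the control group alone.

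Endothelial genes summed to 7.55, 6.05 and 11.7 CPM in guide mice and 11.2, 10.8 and 5.56 CPM in control mice. Pericyte genes summed to 2.96, 3.35 and 5.71 CPM in guide mice and 3.53, 4.39 and 1.90 CPM in control mice. In both vascular classes guide replicate 3 was the highest library and control replicate 3 the lowest.

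As log2 ratios of guide over control means, with no test on a sum, these levels gave 0.32 for Müller glia, -0.42 for Müller glia without Clu, -1.35 for astrocytes, -1.27 for the visual cycle, -2.68 for melanin, -0.12 for endothelium and 0.29 for pericytes. Without control replicate 3 the ratios were 0.57, -0.70, -1.75, -1.29, -3.26, -0.39 and 0.013 in the same order. Leaving that mouse out moved the full Müller glia sum up and the other sums down. Without guide replicate 3 the ratio was -2.24 for astrocytes, -0.87 for Müller glia without Clu, -0.44 for endothelium and -0.055 for pericytes, the last with its sign turned. The endothelial ratio lay above 0 without guide replicate 2 (0.064), control replicate 1 (0.040) or control replicate 2 (0.0056).

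**Figure D1:**
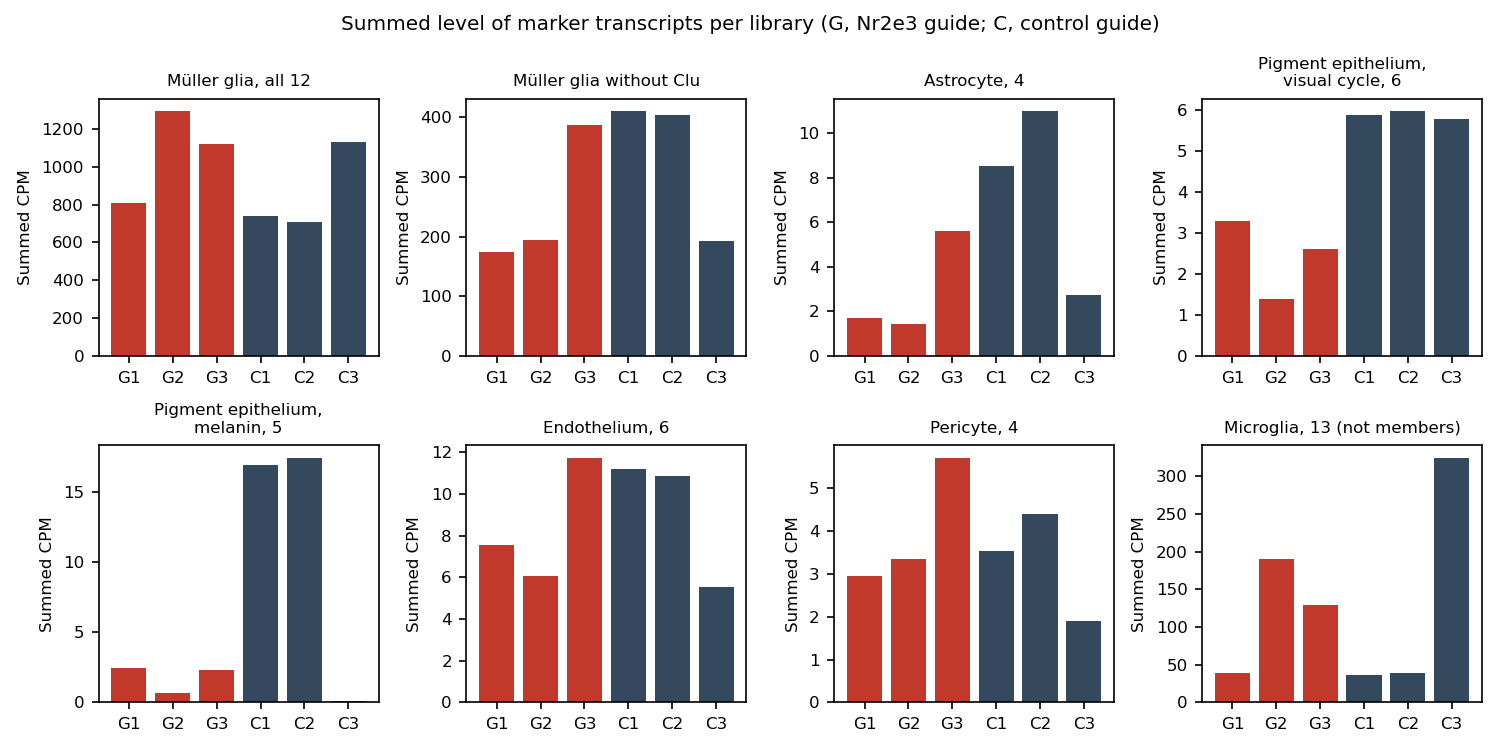
Summed CPM (y axis) of each marker class in the 6 libraries (x axis, G1 to G3 for Nr2e3 guide and C1 to C3 for control guide replicates), each bar 1 mouse, on axes that start at 0. Melanin genes reach 17.0 and 17.5 CPM in control replicates 1 and 2 and stay at or below 2.43 CPM in the other libraries, while the Müller glia panel changes its order once Clu is left out.

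Across the 17138 genes tested with edgeR (adjusted p under 0.05), 0.344% were called, 0.315% as higher and 0.0292% as lower in guide mice. Of the 37 support cell genes, 0 rose and 0 fell. Of the 37, 26 passed the count filter and 1 of these 26 had an unadjusted p under 0.05, compared with 5.69% of all genes tested. DESeq2 called 1 lower, where 1.27% of the genes it adjusted were called and 0.299% were called lower, and limma-voom called 0, against 1.04%. The median log2 fold change of the 26 was -0.42 and that of all genes tested -0.01. Without the count filter, all 37 had a median of -0.71 and 32263 genes one of 0.02. A filter keeps a low gene that is high in 1 group, so the smaller median covers the members that passed and not the set.

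By class the median was -0.34 for all 12 Müller glia genes, -1.09 for 3 of 4 astrocyte genes, -1.86 for 3 of 6 visual cycle genes, -2.55 for 3 of 5 melanin genes, -0.07 for 3 of 6 endothelial genes and 0.52 for 2 of 4 pericyte genes that were tested. Without the count filter the median over every gene of the class was -1.15 for the visual cycle, -1.22 for endothelium and -0.56 for pericytes, the last with its sign turned. Fold changes lay above 0 in 8 of the 26 and below 0 in 18.

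**Figure D2:**
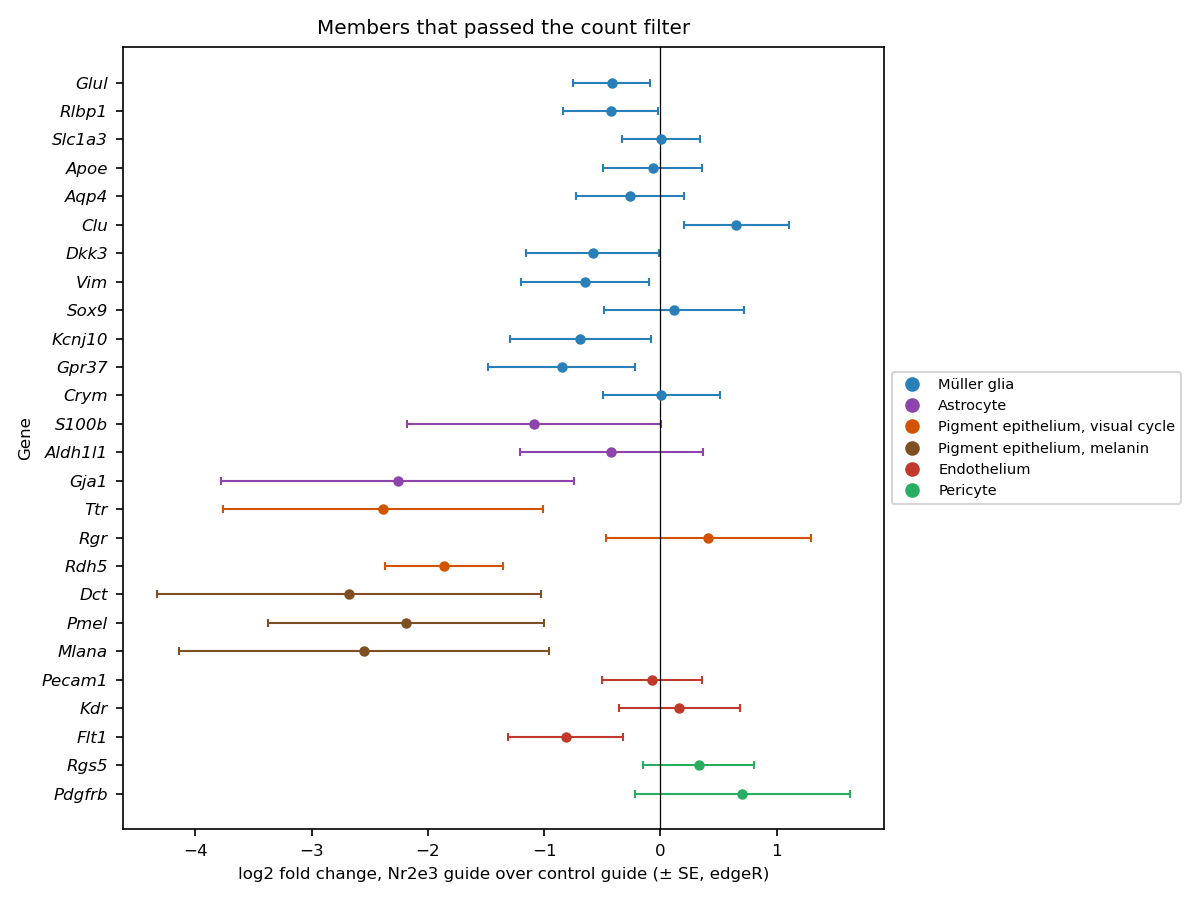
Log2 fold change of Nr2e3 guide over control guide libraries (x axis, point) with its standard error (bar) for the 26 genes that passed the count filter (y axis), coloured by class. The 5 values below -2 (Dct, Mlana, Ttr, Gja1 and Pmel) have wide errors, and Rdh5 at -1.86 has the narrowest error among genes below -1.

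Enzymes and binding proteins of the glutamate and retinoid cycles were among the Müller glia genes with the most counts. Glul, the glutamine synthetase that clears glutamate (GRCm38 chromosome 1, 153899944 to 153909723), was at 66.3, 56.4 and 106 CPM in guide mice and 123, 121 and 61.0 CPM in control mice. It averaged 76.3 ± 26.4 CPM in guide mice and 102 ± 35.4 CPM in control samples (SD, n = 3 each; log2 fold change -0.42, SE 0.33, edgeR adjusted p = 0.995). Rlbp1, which carries 11-cis retinoids (chromosome 7, 79374870 to 79387048), was at 33.9, 38.4 and 77.9 CPM in guide mice and 71.8, 92.6 and 37.6 CPM in control mice (log2 fold change -0.43, SE 0.41, adjusted p = 0.995). For both genes, guide replicate 3 lay among control replicates 1 and 2 or close to them, and control replicate 3 near guide replicates 1 and 2.

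Dkk3, a secreted glycoprotein of the Dickkopf family (chromosome 7, 112116017 to 112159057), also had guide replicate 3 near control replicates 1 and 2. Its values were 35.0, 36.6 and 111 CPM in guide mice and 127, 109 and 37.3 CPM in control mice (log2 fold change -0.58, SE 0.57, adjusted p = 0.995). Leaving out guide replicate 3 and control replicate 3 together, edgeR called Dkk3 lower (log2 fold change -1.72, SE 0.14, adjusted p = 0.0189), where 0.0412% of genes were called lower. It was the only member called under that setting. The libraries left out were those that lay near the opposite group for Dkk3, and only replicates 1 and 2 of each group remained.

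Clu, a secreted chaperone also known as apolipoprotein J (chromosome 14, 65968483 to 65981547), ran differently. It was at 634, 1099 and 733 CPM in guide mice and 327, 304 and 938 CPM in control mice, with control replicate 3 between guide replicates 2 and 3. The mean was 822 ± 245 CPM in guide mice and 523 ± 359 CPM in control samples (SD, n = 3 each; log2 fold change 0.65, SE 0.45, adjusted p = 0.995). Without control replicate 3, each guide library lay above both remaining controls and the log2 fold change was 1.38 (SE 0.25, adjusted p = 0.103). The library left out was the only control that overlapped the guide mice. The share of all genes separated in that way was not counted. Per kilobase of exon, Clu averaged 239 CPM in guide mice and 152 CPM in control mice, compared with 22.9 and 30.7 CPM for Glul. The cell source of Clu was not tested.

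The other 8 Müller glia genes all had counts in every library. Apoe, the lipid carrier apolipoprotein E, ranged from 7.32 to 22.1 CPM, and control replicate 3 exceeded both other controls for it, as for Clu. Slc1a3, the glial glutamate transporter, ranged from 7.75 to 17.4 CPM, Crym, a thyroid hormone binding protein, from 4.59 to 20.3 CPM, and Aqp4, the water channel of glial endfeet, from 3.61 to 12.2 CPM. The filament protein Vim ranged from 2.77 to 14.0 CPM, the receptor Gpr37 from 2.35 to 11.9 CPM, the potassium channel Kcnj10 from 0.435 to 3.08 CPM and the glial transcription factor Sox9 from 0.588 to 2.20 CPM. In all 8 the groups overlapped, and 0 had an unadjusted p under 0.05 by edgeR or an adjusted p under 0.05 by DESeq2 or limma-voom. A further list of 25 Müller glia genes had 22 tested with 0 called by any of these tools, 0 at an unadjusted p under 0.05 and a median log2 fold change of -0.15.

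Astrocyte genes were low, and 3 of the 4 passed the count filter. Gja1, the gap junction protein connexin 43 (chromosome 10, 56377330 to 56402513), was at 0, 0.131 and 2.44 CPM in guide mice and 5.69, 6.72 and 0.294 CPM in control mice. Its counts were 0, 3 and 83 in guide mice and 179, 233 and 11 in control mice, and the log2 fold change was -2.26 (SE 1.52, adjusted p = 0.995). Control replicates 1 and 2 were the highest libraries, and guide replicate 3 came next. Without guide replicate 3 the log2 fold change of Gja1 was -6.0 (SE 1.77, adjusted p = 0.391). With sex as a term it was -10.04. In that fit the guide effect compares guide replicate 1, the only guide male, with the control mice. That library had 0 counts of Gja1, so the value depends on the prior count and is no bound. Aldh1l1, a folate enzyme of astrocytes (0.190, 1.31 and 2.65 CPM in guide mice, 1.75, 2.37 and 1.47 CPM in control mice), and S100b, a calcium-binding protein (1.33, 0 and 0.500 CPM in guide mice, 1.05, 1.90 and 0.962 CPM in control mice), overlapped between the groups. Pax2, the astrocyte lineage factor, had 5 counts in guide replicate 1, 1 count in control replicate 1 and 0 in the other 4 libraries. Control replicate 2 was the highest library for Gja1 and S100b, guide replicate 3 for Aldh1l1 and guide replicate 1 for Pax2.

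**Figure D3:**
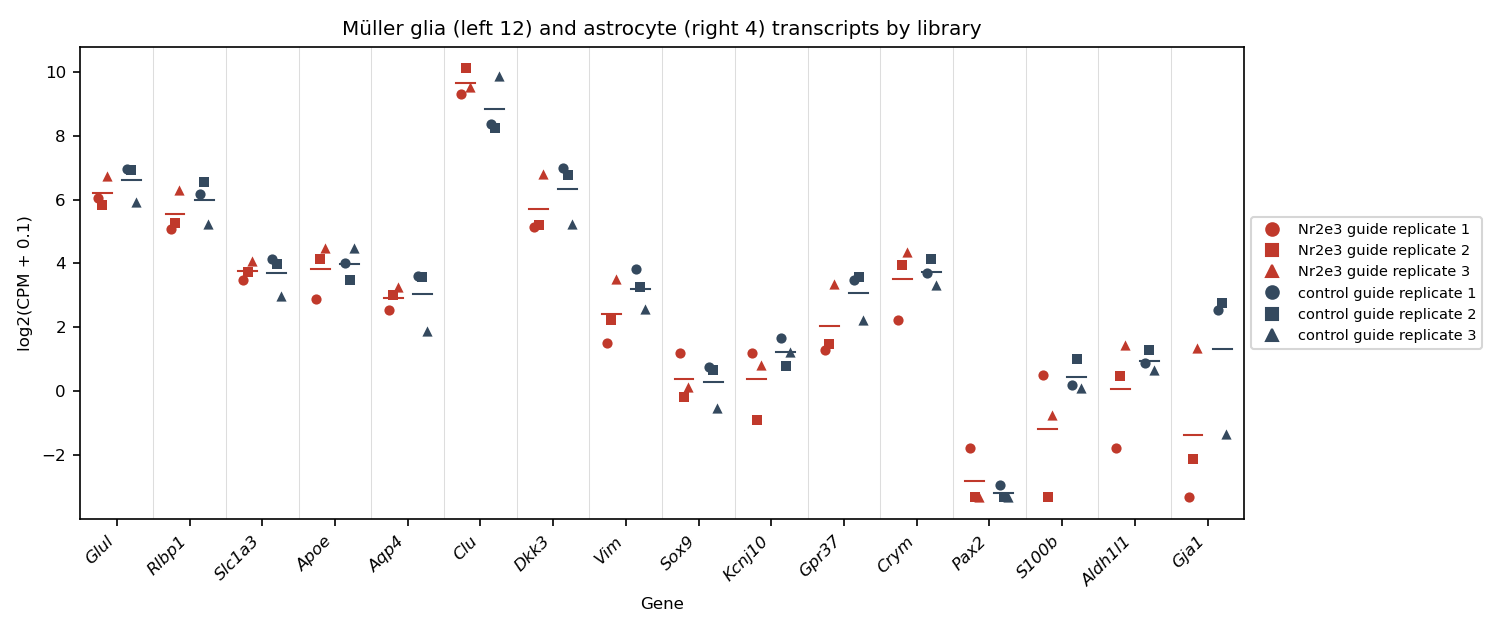
Level of the 12 Müller glia and 4 astrocyte genes (x axis) in each library as log2(CPM + 0.1) (y axis), Nr2e3 guide points left of control guide points, with a line at each group's mean on that scale. Triangles mark replicate 3 of each group, which lies with the opposite group for Glul, Rlbp1, Dkk3 and Gpr37.

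The defining genes of the pigment epithelium were close to absent. Rpe65, the isomerase of the visual cycle, had 1, 0 and 0 counts in guide mice and 0, 3 and 0 counts in control replicates 1, 2 and 3. Lrat, which makes retinyl esters, had at most 7 counts in a library, and Best1, an anion channel, at most 11. None of the 3 entered the test.

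Rdh5, the 11-cis retinol dehydrogenase (chromosome 10, 128913593 to 128922888), was the tested member whose groups did not overlap. Its values were 0.531, 0.914 and 1.65 CPM in guide mice and 2.92, 3.35 and 5.08 CPM in control mice, from 14, 21 and 56 counts in guide mice and 92, 116 and 190 counts in control mice. Mean levels were 1.03 ± 0.568 CPM in guide mice and 3.78 ± 1.14 CPM in control samples (SD, n = 3 each; log2 fold change -1.86, SE 0.51, unadjusted p = 0.00692, edgeR adjusted p = 0.409). DESeq2 called it lower (log2 fold change -1.87, adjusted p = 0.0434), and over the alternatives tried the adjusted p ran from 0.0434 to 0.980. Groups did not overlap for 12.1% of all genes tested, and for 5.91% with guide mice lower. Bloc1s1, a same-strand neighbour, shares 25.6% of the exon length of Rdh5, so that reads there may be lost or exchanged. Bloc1s1 was at 36.8, 42.8 and 35.6 CPM in guide mice and 46.1, 39.2 and 31.2 CPM in control mice (log2 fold change -0.02, SE 0.19, adjusted p = 0.998), without the order seen for Rdh5. Unlike the other tested pigment epithelium members, Rdh5 had its highest value in control replicate 3. Krt18, of the further pigment epithelium list, also had its highest value there.

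Ttr, transthyretin, a carrier of thyroid hormone and retinol, was at 0, 0.218 and 0.442 CPM in guide mice and 1.87, 1.64 and 0.0534 CPM in control mice (log2 fold change -2.39, SE 1.37, adjusted p = 0.993). Its log2 fold change was -3.45 without guide replicate 3 (SE 1.78, adjusted p = 0.605). With sex as a term it was -8.21, again from guide replicate 1 alone against the control mice. That library had 0 counts of Ttr, so this value is no bound either. Rgr, an opsin of Müller glia and pigment epithelium, was at 2.20, 0.218 and 0.353 CPM in guide mice and 0.826, 0.692 and 0.561 CPM in control mice (0.41, SE 0.88, adjusted p = 0.995). For Rgr the highest and the lowest library were both guide libraries.

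Melanin genes were present in control replicates 1 and 2 and scarce elsewhere. In control replicates 1 and 2, Rpe65 had 0 and 3 counts, Lrat 0 and 7 and Best1 8 and 0. Whether the melanin transcripts came from pigment epithelium or from other pigmented cells was not tested. Dct, dopachrome tautomerase (chromosome 14, 118012790 to 118052244), was at 1.02, 0 and 1.21 CPM in guide mice and 8.10, 6.49 and 0 CPM in control mice, from 27, 0 and 41 counts in guide mice and 255, 225 and 0 counts in control mice (log2 fold change -2.68, SE 1.65, adjusted p = 0.995). Pmel, the fibril protein of melanosomes (chromosome 10, 128704195 to 128720238), was at 1.10, 0.653 and 0.412 CPM in guide mice and 5.21, 4.59 and 0.0534 CPM in control mice (log2 fold change -2.18, SE 1.19, adjusted p = 0.973). Its exons overlap Dgka and Cdk2 on the opposite strand over 6.06% of their length, and the counting's strand setting is not given in the sources used here. Control replicate 3 lay below every guide library for Pmel, while the other 2 controls lay above them all.

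Mlana, a melanosome protein, had 0, 0 and 0.500 CPM in guide mice and 1.59, 1.53 and 0.0534 CPM in control mice (log2 fold change -2.55, SE 1.59, adjusted p = 0.995). Without guide replicate 3 both remaining guide libraries had 0 counts of Mlana. The fitted log2 fold change, which then depends on the prior count and is no bound, was -8.02 (SE 2.49, adjusted p = 0.444). With sex as a term it was -8.04, from guide replicate 1 alone, with 0 counts, against the control mice. Tyrp1, which acts beside tyrosinase (chromosome 4, 80834123 to 80851719), had 0.114, 0 and 0.177 CPM in guide mice and 1.94, 4.33 and 0 CPM in control mice and did not pass the filter. Tyr, tyrosinase itself, had 5, 0 and 1 counts in guide mice and 4, 18 and 0 counts in control mice. For 4 of the 5 melanin genes, Tyr excepted, control replicates 1 and 2 each lay above the other 4 libraries. That order held for 10 of the 37 members, 3 of them Müller glia genes. Its share over all genes was not counted, so these counts cannot be set against other genes.

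Without control replicate 3, the log2 fold change was -2.77 for Pmel (SE 0.49, adjusted p = 0.101), -3.26 for Dct (SE 0.97, adjusted p = 0.353) and -4.88 for Tyrp1 (SE 0.91, adjusted p = 0.119), and edgeR called 0 of the 37 genes, against 0.5% of the genes tested in that fit. Among males, the melanin sums were 2.43 CPM in the guide male and 17.0, 17.5 and 0.107 CPM in the control males, so that the guide male lay inside the control range. A further list of 18 pigment epithelium genes had 8 tested, with 0 called by edgeR, DESeq2 or limma-voom, 1 at an unadjusted p under 0.05 and a median log2 fold change of -0.62. The 1 was Krt18, at 81.2, 143 and 96.6 CPM in guide mice and 158, 146 and 191 CPM in control mice (log2 fold change -0.62, SE 0.23, edgeR unadjusted p = 0.0273, adjusted p = 0.736). Each guide library lay below each control library, as for 5.91% of all genes tested.

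**Figure D4:**
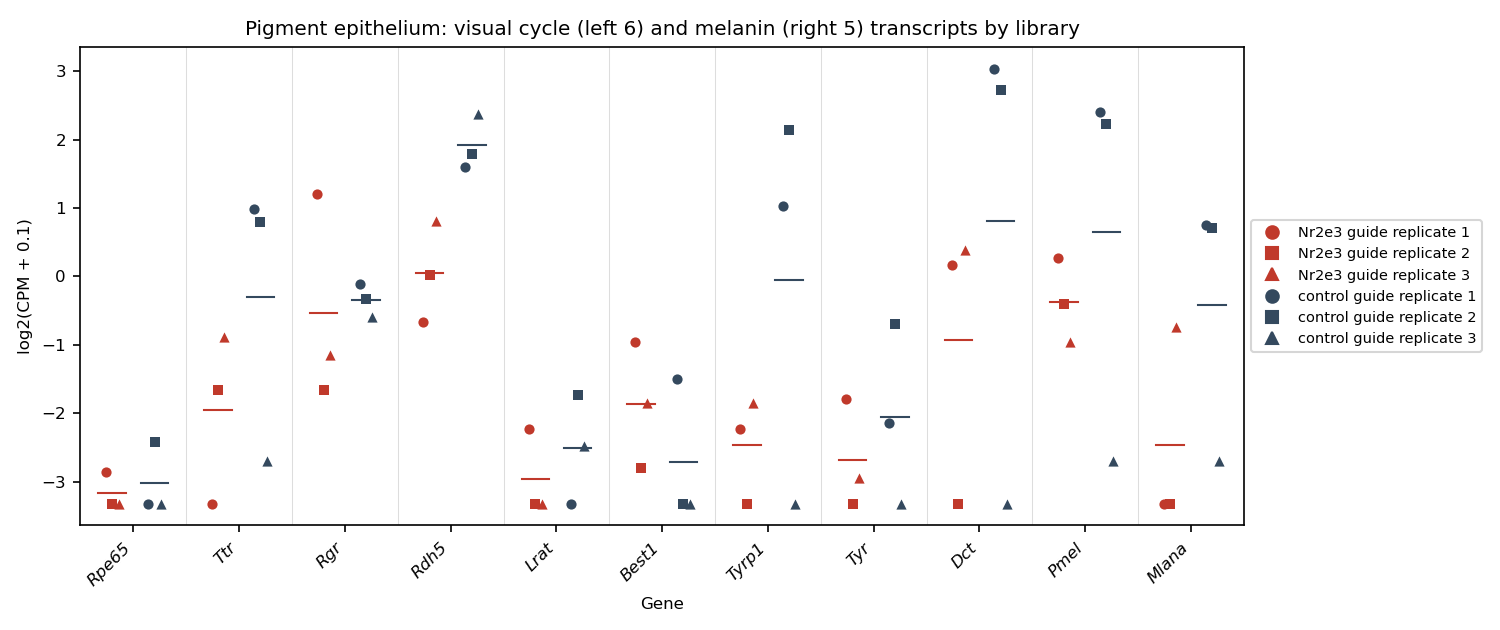
Level of the 6 visual cycle and 5 melanin genes (x axis) in each library as log2(CPM + 0.1) (y axis), Nr2e3 guide points left of control guide points, with a line at each group's mean on that scale. Rdh5 is the gene whose groups separate completely in the visual cycle panel, and control replicate 3 (dark triangle) sits at the floor for the melanin genes.

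Vessel transcripts among the members were few and uneven. The junction proteins that define endothelium were almost absent, with Cldn5 at 0, 1 and 0 counts in guide mice and 0, 7 and 3 counts in control mice and Cdh5 at 0 in every library except control replicate 2, which had 2 counts. A count of 0 allows up to 0.131 CPM in guide mice and 0.0953 CPM in control mice, the limits of the shallowest library of each group. Kdr, receptor 2 for vascular endothelial growth factor (chromosome 5, 75932827 to 75978458), supplied 60.1% of the endothelial sum. It was at 5.50, 2.70 and 8.60 CPM in guide mice and 6.23, 6.35 and 2.46 CPM in control mice (log2 fold change 0.16, SE 0.52, adjusted p = 0.996). Its log2 fold change was -0.17 without control replicate 3.

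Flt1, receptor 1 for the same factor, was at 0.683, 1.65 and 1.59 CPM in guide mice and 2.89, 2.51 and 1.52 CPM in control mice (log2 fold change -0.82, SE 0.49, adjusted p = 0.995). Pecam1, an adhesion protein of endothelium and leukocytes, had the smallest ratio of highest to lowest library among the 37 genes (1.94), at 1.29, 1.61 and 1.44 CPM in guide mice and 1.97, 1.59 and 1.02 CPM in control mice (log2 fold change -0.07, SE 0.43, adjusted p = 0.997). Tek, the angiopoietin receptor, had 2, 1 and 4 counts in guide mice and 4, 5 and 18 counts in control mice. Each guide library lay below each control library in CPM for Tek, at counts too low for the filter.

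Rgs5, a regulator of G protein signalling enriched in pericytes (chromosome 1, 169655501 to 169695813), supplied 82.7% of the pericyte sum. It was at 2.58, 2.96 and 4.50 CPM in guide mice and 3.21, 3.58 and 1.23 CPM in control mice (log2 fold change 0.33, SE 0.48, adjusted p = 0.995). Guide replicate 3 was again the highest library and control replicate 3 the lowest, and without control replicate 3 the log2 fold change was -0.021. Pdgfrb, the receptor for platelet-derived growth factor, was at 0.303, 0.392 and 1.21 CPM in guide mice and 0.0953, 0.808 and 0.267 CPM in control mice (0.70, SE 0.92, adjusted p = 0.995). Cspg4, the proteoglycan NG2, had 15 counts in control replicate 3 and 0 in the other 5 libraries. Kcnj8, a potassium channel subunit of mural cells, had 2, 0 and 0 counts in guide mice and 7, 0 and 0 counts in control mice. Further lists of 21 endothelial and 13 mural genes had 11 and 4 members tested, with 0 called by edgeR, DESeq2 or limma-voom, 0 at an unadjusted p under 0.05, and median log2 fold changes of -0.58 and -0.16. Slc2a1 supplied 91.4% of the endothelial list's sum, at means of 152 CPM in guide and 171 CPM in control mice. Vtn supplied 99.8% of the mural list's sum, at means of 4378 and 3746 CPM (log2 fold change 0.22, SE 0.12, edgeR adjusted p = 0.959). Each guide library lay above each control library for Vtn, and groups did not overlap for 12.1% of all genes tested. The cell source of these 2 transcripts was not tested.

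**Figure D5:**
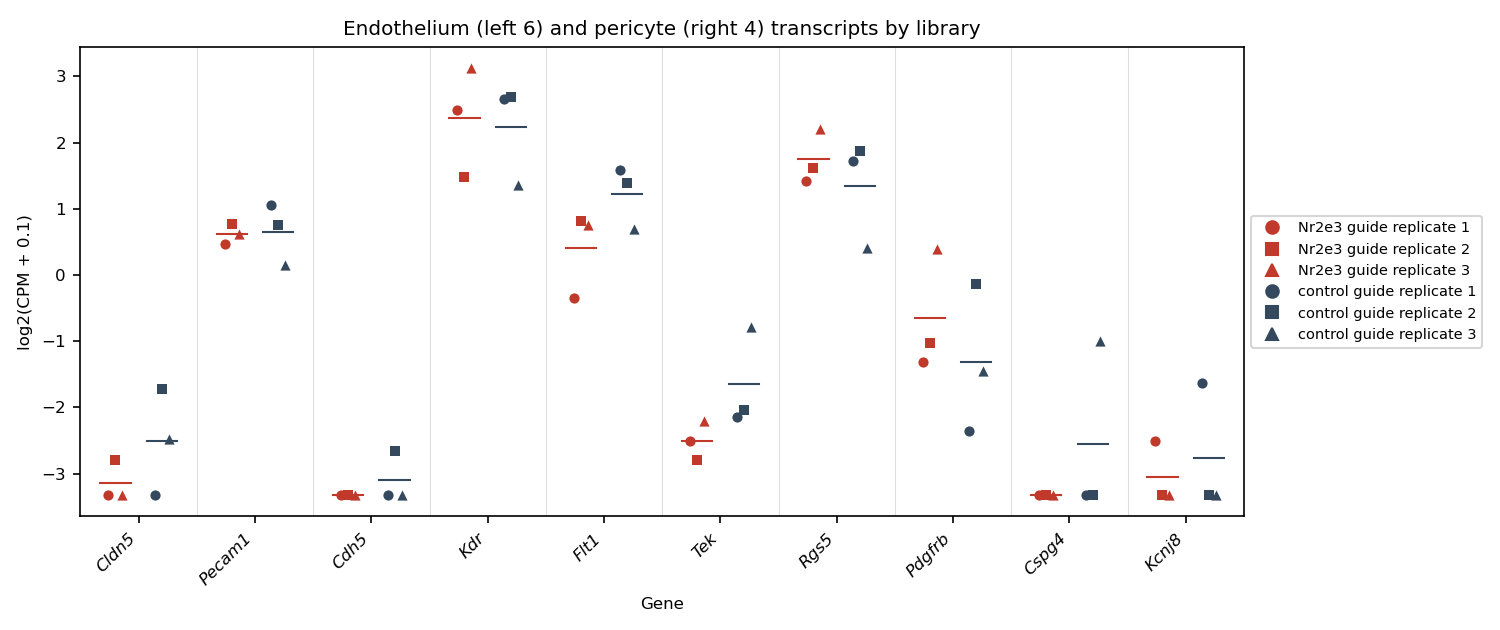
Level of the 6 endothelial and 4 pericyte genes (x axis) in each library as log2(CPM + 0.1) (y axis), Nr2e3 guide points left of control guide points, with a line at each group's mean on that scale. Kdr ranges from 2.46 to 8.60 CPM and Rgs5 from 1.23 to 4.50 CPM, and Cldn5, Cdh5, Cspg4 and Kcnj8 lie at the floor in most libraries.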

How the data were processed

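The authors deposited raw counts of reads for each gene symbol in a separate table per mouse. Per the submitters' processing notes, the build was GRCm38 (mm10) and the tools were DESeq2 1.42.0, HTSeq 0.12.4, STAR 2.7.3a and cutadapt. The sources used here give neither annotation nor strand setting. Per the labels' protocols, cDNA was made with a SMARTer Ultra Low kit, and that kit keeps no strand information. Entries naming no gene (5 per table, 21.6 to 23.7% of counts) were left out.

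The whole table was fitted in R 4.3.3 with edgeR 4.0.16: filterByExpr (min.count 10, total 15), TMM factors, then glmQLFit and glmQLFTest on group alone, with Benjamini-Hochberg adjustment and a threshold of 0.05. The standard error (SE) is derived from the log2 fold change and its F statistic. The procedure was tested on simulated data. The simulation gave every gene the same variation between mice and held no outlying library. It therefore does not show which changes the fit could find in the members. Coordinates, exon lengths and overlaps come from GENCODE M21 (GRCm38), which matched all 37 members, 4 of them sharing exons with another gene.

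Members and lists were chosen with earlier results of these data known, so nothing here is independent support. Values per mouse are given for up to 4 members of highest mean CPM per class, and for any with an unadjusted p under 0.05 or without overlap between groups. Alternatives were DESeq2 size factors, library size only, the DESeq2 1.42.0 test, limma-voom (limma 3.58.1), other filters, a replicate block, a term for sex, and left-out libraries. With the term for sex, the guide effect compares guide replicate 1, the only guide male, with the control mice. Replicates are separate mice, and every pair within a group differed by more than sampling noise.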

Additional observations from a re-analysis of the deposited data

How the results depend on the processing

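Over the 15 alternative settings, 0 members were called higher. DESeq2 called 1 lower (Rdh5), leaving out both replicate-3 libraries gave 1 (Dkk3), and the other 13 settings gave 0. Of 257 alternative log2 fold changes for 18 named members, 239 kept their sign. These fits reuse the same libraries and are not separate observations, and the share of kept signs over all genes was not counted.

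Over all genes, the DESeq2 test called 185 higher and 57 lower, limma-voom 160 and 19, no count filter 130 and 25, the replicate block 31 and 1, and sex as a term 6 and 0. Library size only called 3 lower. Single left-out libraries gave 14 to 80 higher and 0 to 9 lower.

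Replicate numbers name different mice. Same-numbered libraries deviated with correlations of 0.136, -0.144 and 0.0441, and pairs with unlike numbers with -0.186 to 0.145. With so few libraries, these values cannot show whether a number also stands for a shared batch, which was not tested. The replicate block called 0 members.

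With both replicate-3 libraries left out, the log2 ratio of summed levels was -2.63 for astrocytes, -0.70 for endothelium, -0.32 for pericytes and -1.14 for Müller glia without Clu. Median log2 fold changes there were -4.70 for melanin, -0.61 for endothelium and -0.33 for pericytes. With sex as a term they were -0.84 for Müller glia, -3.27 for astrocytes, -2.82 for visual cycle and -0.21 for pericytes. That fit sets guide replicate 1 alone against the control mice. Limma-voom gave -2.21 for astrocytes. Endothelium and pericytes, whose sets then held untested genes, had -1.17 and -0.62 by DESeq2 and -1.22 and -0.56 without a count filter.

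Signs turned without both replicate-3 libraries for Kdr (-0.61), Rgs5 (-0.29) and Pdgfrb (-0.38), with sex as a term for S100b (0.025), Rgs5 (-0.050) and Pdgfrb (-0.36), by limma-voom for Rgr (-0.071), Kdr (-0.19) and Rgs5 (-0.027), and with the replicate block for Rgr (-0.26). Single left-out libraries ranged from -1.32 to 0.092 for Aldh1l1, -1.26 to 0.87 for Rgr, -0.29 to 0.49 for Kdr, -0.30 to 0.15 for Pecam1, -0.021 to 0.59 for Rgs5 and -0.17 to 1.78 for Pdgfrb. The causes of these shifts were not tested. A mean of at least 5 CPM left only Müller glia genes and Kdr in the test. Counts under about 10 in a library, as for most vessel and visual cycle genes, limit what can be seen.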
